A study of Mus musculus with 6 samples.

Results

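The genes described here encode the mitochondrial respiratory chain and the ATP synthase: complexes I to IV, cytochrome c, the complex I assembly factors named Ndufaf, and the ATP synthase subunits. They were chosen by symbol from the annotation of 3 Eomes peak lists (symbols beginning with Nduf, Uqcr or Atp5, the Cox subunit symbols, Sdha to Sdhd, Cyc1 and Cycs), with 4 pseudogene symbols left out. This gave 81 genes with at least 1 assigned peak, of 15576 protein-coding genes with one. By the same rule RefSeq lists 98 nuclear genes, of 21887 nuclear protein-coding genes. Of the 17 others, 15 had no assigned peak and 2 appear in the lists under other symbols (Atp5mpl as 2010107E04Rik, Atp5md as Usmg5). Shares are given over all 98 genes, so that genes without a peak count too.

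Eomes was immunoprecipitated from chromatin of natural killer (NK) cells in 3 experiments, each with its own input, so that 3 anti-Eomes libraries stand beside 3 input libraries. All cells came from the spleens of wild-type C57BL/6 mice of 8 to 12 weeks, were pooled and purified, and were grown for 4 days with 100 ng/mL of the cytokine IL-15. Input is DNA of the same kind of cells that was not immunoprecipitated. No condition, genotype or time was varied, so every value describes Eomes occupancy in IL-15-grown NK cells, and no expression was measured here.

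Eomes is a T-box transcription factor that directs the maturation and maintenance of NK cells and recognises DNA through a short T-box element. The respiratory chain passes electrons from NADH and succinate through complexes I and II, ubiquinone, complex III and cytochrome c to oxygen at complex IV, and the ATP synthase uses the resulting proton gradient. Its nuclear-encoded subunits are made in nearly every cell, mostly from CpG-rich promoters at which the factors NRF1 and GABP (an ETS family factor) are known to act. IL-15-stimulated NK cells are known to raise oxidative metabolism.

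Each list gave, per peak, the pileup (the stacked signal at the summit), a fold enrichment over background and a q-value, all as the authors' peak caller wrote them. Overlapping peaks were joined into regions, and a region was called reproducible with a peak in at least 2 of the 3 lists. Experiment 1 gave 37456 intervals, experiment 2 gave 33841 and experiment 3 gave 46329, with median pileups of 12, 11 and 14 and lowest pileups of 8, 7 and 9. Read totals are not given in the lists, so depth is unknown, and values are compared within a list or by their percentile among the q-values of that list.

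Eomes regions lay at the promoters of most respiratory chain genes. Of the 98 genes, 56 (57.1%, 95% Wilson interval 47.3 to 66.5) had a reproducible region, beside 44.8% of all protein-coding genes. A promoter region (within 3000 bp of the start in the authors' annotation) was assigned to 55 of them (56.1%, interval 46.3 to 65.5), beside 38.4% of all genes. Regions found in all 3 lists covered 37 (37.8%, interval 28.8 to 47.6), beside 29.8%. Away from promoters 8 of the 98 (8.16%, interval 4.19 to 15.3) had a reproducible region, beside 15.1% of all genes. The intervals of these last 2 shares include the share of all genes. Among the 81 genes chosen by symbol the counts were 55 with a reproducible region, 54 with one at the promoter and 36 with one in all 3 lists. The Wilson intervals treat genes as independent and cover counting error only.

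The excess varied between experiments. A peak of any class in any list was assigned to 83 of the 98 genes (84.7%), beside 71.2% of all genes. By experiment, 50 (51%), 61 (62.2%) and 74 (75.5%) had a peak, beside 54.1%, 54% and 60.1% of all genes. Promoter peaks of experiment 1 belonged to 42 of the 98 genes (42.9%), beside 40% of all genes, which is close to the background. Those of experiment 2 belonged to 54 (55.1%), beside 41.8%, and those of experiment 3 to 70 (71.4%), beside 48.5%. Without experiment 3, 34 of the 81 genes kept a reproducible region and 32 one at the promoter, and the family share was 35.7%, beside 31% of all genes. Without experiment 1 the share was 49%, beside 37.4%, and without experiment 2 it was 42.9%, beside 36%. The family share was thus numerically higher than that of all genes in each pair of experiments, by less in both pairs that include experiment 1. Without experiment 2 it rests on 42 of the 98 genes. The Wilson interval of that count, 33.5 to 52.7, includes the 36% of all genes. Intervals were not computed for the other pairs, and these differences were not tested.

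**Figure D1:**
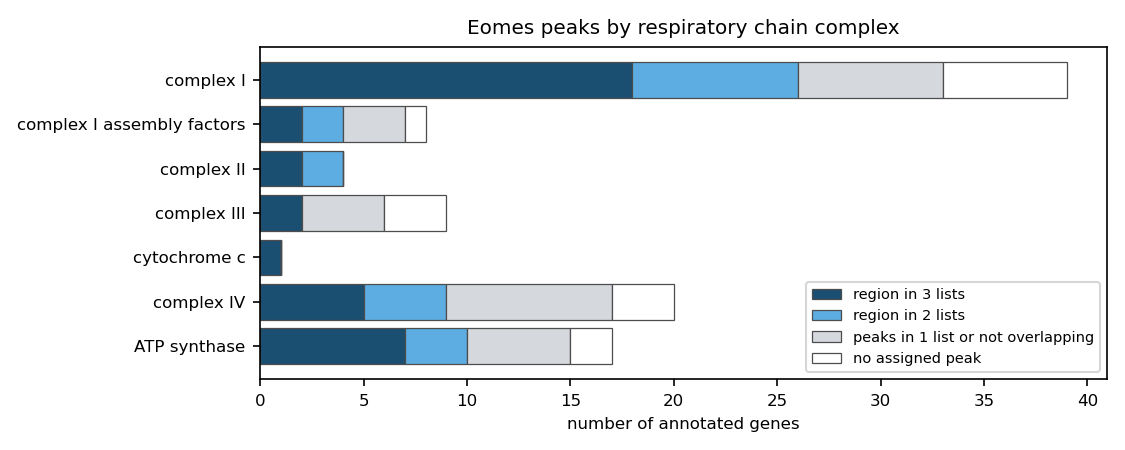
Number of annotated genes of each complex (x axis) by their Eomes peaks, with bars split into genes with a region in 3 lists, in 2 lists, with peaks that do not recur, and with no assigned peak. All 4 complex II genes fall in the first 2 classes, while 2 of the 9 complex III genes do.

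The share of covered genes was counted for each complex, beside the 44.8% of all genes. Of the 39 complex I genes, which encode the NADH dehydrogenase, 26 (66.7%) had a reproducible region, 18 of them in all 3 lists. All 4 complex II genes, which encode succinate dehydrogenase, had one, with 2 in all 3 lists. In complex III, the cytochrome bc1 complex, it was 2 of 9 (22.2%), both in 3 lists. Cycs, the 1 gene of cytochrome c, was covered in 3 lists. Complex IV, cytochrome c oxidase, had 9 of 20 (45%), at the background, with 5 in 3 lists, and the ATP synthase had 10 of 17 (58.8%), with 7 in 3 lists. Among the complex I assembly factors, which build the enzyme without remaining in it, the count was 4 of 8 (50%), near the background. The plot of genes by complex shows these counts. The groups are small, and no difference between complexes was tested.

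A list of 21 core subunits (most of them catalytic or electron-carrying, with the complex III core proteins and cytochrome c) was covered in 16 cases (76.2%, beside 44.8% of all genes), 13 of them in all 3 lists. The 5 without an assigned reproducible region were Ndufs1, Ndufs3, Uqcrc2, Cyc1 and Atp5e. The isoforms restricted to heart, muscle, testis or other tissues (Cox4i2, Cox6a2, Cox6b2, Cox7a1, Cox7b2, Cox8b and Cox8c) were covered in 1 of 7 cases (14.3%). That 1 was Cox7b2, whose region lay 182864 bp downstream of the start in the authors' annotation.

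Cox7a2 stood apart from every other gene of the chain. It encodes the widely expressed isoform of a small subunit of complex IV. Its promoter region (mm10 chr9:79759354-79760044) had pileups of 67, 55 and 76 in experiments 1, 2 and 3, where the next highest among the leading regions of the 81 genes reached 28, 28 and 50. Its fold enrichment was 15.74 ± 1.21 (SD, n = 3 experiments), and its q-value ranked at the 99.7th, 99.5th and 99.5th percentile of the lists. The 3 summits lay 11, 25 and 12 bp downstream of the start. The region also lies within the annotated pseudogene Gm51685, and reads were not separated between the pair. No leading region of another gene of the chain reached the lowest of the 3 Cox7a2 pileups in any experiment.

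Cox5a, a complex IV subunit that sits on the matrix side of the enzyme, came next by rank. Its pileups at chr9:57521032-57521855 were 26, 28 and 38, with a fold of 8.60 ± 1.15 and a mean percentile of 95.4. By percentile the 3 experiments gave 94.4, 96.5 and 95.3.

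Complex I gave 6 of the 12 highest-ranked genes among those found in all 3 lists. Ndufs7, a core subunit holding the iron-sulfur cluster that hands electrons to ubiquinone, had pileups of 27, 20 and 50 and a fold of 9.06 ± 2.64. Ndufv1, the core subunit that binds NADH and flavin, had pileups of 25, 24 and 34 and a fold of 8.35 ± 1.76. Ndufab1, the mitochondrial acyl carrier protein, had pileups of 28, 22 and 31 and a fold of 8.08 ± 1.99. These 3 had mean percentiles of 94.8, 94.4 and 93.5, and their folds differed by less than their SDs. The Ndufs7 region (chr10:80248948-80249689) also covered the tRNA genes n-TFgaa3 and n-TNgtt7, and its summits lay 229, 231 and 263 bp downstream of the start used by the lists. Reads of the tRNA genes and of the Ndufs7 promoter were not separated.

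The other 3 complex I genes of that group are accessory subunits of the membrane arm. Ndufb2 had pileups of 26, 16 and 27 and a fold of 7.63 ± 0.95. Ndufb5 had 27, 16 and 28 and a fold of 6.41 ± 0.70. Ndufb3 had 15, 16 and 35 and a fold of 6.31 ± 1.25. By percentile within the list, Ndufb2 and Ndufb5 ranked lowest in experiment 2 (85.8 and 81.3), while Ndufb3 ranked lowest in experiment 1 (77.2).

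Of the remaining top-ranked genes, Atp5c1 encodes the gamma subunit, the rotating stalk of the ATP synthase, and had pileups of 21, 16 and 32 with a fold of 7.01 ± 0.56. Sdhc, a membrane anchor of complex II, had 23, 17 and 20 with a fold of 6.04 ± 1.06. Ndufaf1, an assembly factor of the complex I membrane arm, had 22, 16 and 19 with a fold of 6.40 ± 1.98. Cox4i1, described below, completes the 12. Atp5mpl, a small ATP synthase subunit listed as 2010107E04Rik and so outside the 81, had 24, 19 and 31 with a fold of 7.34 ± 1.85 and would rank among them by its mean percentile.

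**Figure D2:**
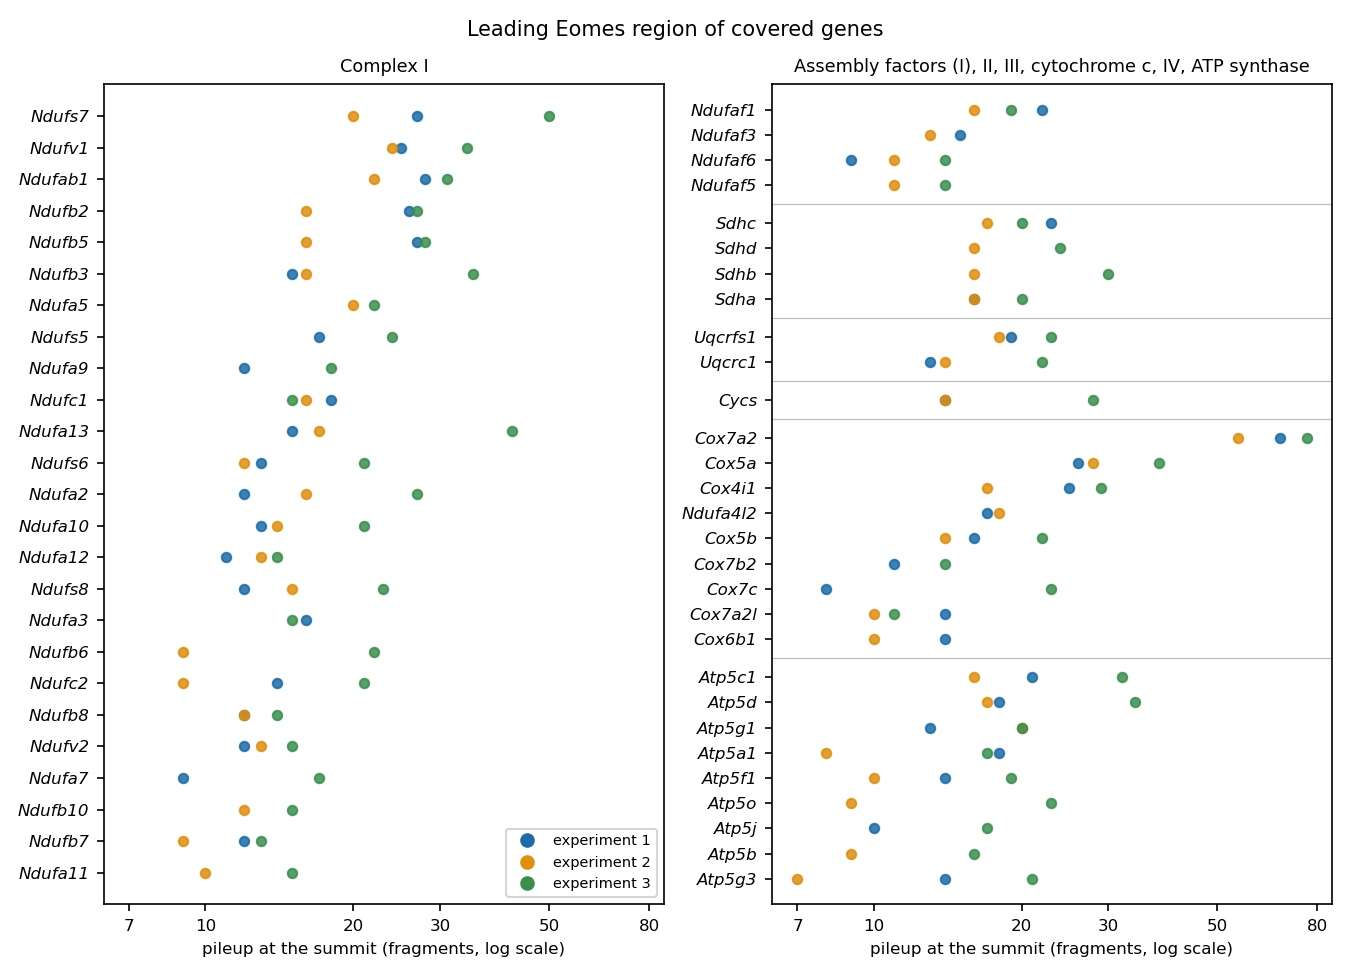
Pileup at the summit of the leading region of covered genes (1 complex I gene not drawn) (x axis, log scale), 1 point per experiment, with genes ordered within each complex by mean percentile. Cox7a2 lies at 55 to 76 in the 3 experiments, and the other genes drawn lie between 7 and 50.

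The promoters of some of the 12 highest-ranked genes are shown as examples, not all of them. Beside them stand those of 3 covered genes that carry the T-box core, since Eomes is a T-box factor. Each line gives the 200 bases before the RefSeq start (GRCm38.p6, the assembly called mm10), read 5′ to 3′ on the gene's strand. Capitals mark the T-box core GGTGTG or its reverse complement, and the ETS core CCGGAAG. The lines are Cox7a2 (chr9:79759854-79760053, minus strand), Cox5a (chr9:57521032-57521231, plus), Ndufv1 (chr19:4012756-4012955, minus), Ndufab1 (chr7:122101849-122102048, minus), Ndufaf1 (chr2:119662835-119663034, minus), Ndufaf3 (chr9:108567437-108567636, minus), Ndufb6 (chr4:40279422-40279621, minus) and Ndufb7 (chr8:83566558-83566757, plus).
Cox7a2: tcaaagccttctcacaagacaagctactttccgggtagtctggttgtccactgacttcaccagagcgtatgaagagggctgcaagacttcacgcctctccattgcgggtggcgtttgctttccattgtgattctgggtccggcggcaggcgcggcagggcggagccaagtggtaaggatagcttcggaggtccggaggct
Cox5a: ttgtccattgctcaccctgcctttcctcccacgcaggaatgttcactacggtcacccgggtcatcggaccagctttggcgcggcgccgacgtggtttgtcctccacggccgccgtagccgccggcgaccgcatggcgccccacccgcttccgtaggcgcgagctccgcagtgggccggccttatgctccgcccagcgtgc
Ndufv1: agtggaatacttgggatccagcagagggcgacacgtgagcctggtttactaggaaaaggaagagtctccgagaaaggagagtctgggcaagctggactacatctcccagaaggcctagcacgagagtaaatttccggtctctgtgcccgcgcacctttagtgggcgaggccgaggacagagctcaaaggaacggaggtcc
Ndufab1: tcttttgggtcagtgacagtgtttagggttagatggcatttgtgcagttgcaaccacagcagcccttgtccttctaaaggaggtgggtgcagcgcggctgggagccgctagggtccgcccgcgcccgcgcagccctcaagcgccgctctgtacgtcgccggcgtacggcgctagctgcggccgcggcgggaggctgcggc
Ndufaf1: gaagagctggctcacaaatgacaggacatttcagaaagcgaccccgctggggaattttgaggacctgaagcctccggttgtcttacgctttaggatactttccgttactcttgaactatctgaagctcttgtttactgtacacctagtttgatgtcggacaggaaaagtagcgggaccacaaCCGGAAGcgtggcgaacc
Ndufaf3: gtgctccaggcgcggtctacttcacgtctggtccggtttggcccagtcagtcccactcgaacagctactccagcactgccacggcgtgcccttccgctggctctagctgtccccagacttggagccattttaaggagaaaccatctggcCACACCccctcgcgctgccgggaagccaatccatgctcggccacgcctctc
Ndufb6: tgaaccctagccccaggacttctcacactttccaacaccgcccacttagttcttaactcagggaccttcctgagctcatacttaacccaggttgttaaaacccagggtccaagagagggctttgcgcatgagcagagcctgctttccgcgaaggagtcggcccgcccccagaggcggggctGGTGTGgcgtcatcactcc
Ndufb7: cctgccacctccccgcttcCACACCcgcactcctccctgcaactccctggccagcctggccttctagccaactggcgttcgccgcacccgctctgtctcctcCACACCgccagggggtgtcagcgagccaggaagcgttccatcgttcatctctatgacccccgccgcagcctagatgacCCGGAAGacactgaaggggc

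Of the 12 highest-ranked genes, shown or not, 10 have a start in the RefSeq promoter table. None of these 10 held the T-box core in the 200 bases before the start. Ndufaf1 alone among the 10 held the ETS core there, at positions -18 to -12 from the start. Ndufb6 held the T-box core at -19 to -14, Ndufaf3 at -51 to -46, and Ndufb7 at -181 to -176 and at -98 to -93 with an ETS core at -20 to -14. These 3 genes were not among the strongly covered ones. Ndufb6, a membrane-arm subunit, had pileups of 9 and 22 in experiments 2 and 3 and no overlapping peak in experiment 1. Ndufaf3, an assembly factor, had 15 and 13 in experiments 1 and 2 at a region whose summits lay 286 and 478 bp downstream of the start. The promoter region of Ndufb7, another membrane-arm subunit, had 13 and 17 in experiments 2 and 3. Beyond the 200 bases, covered genes with the core were Cycs, at -234 to -229, and Ndufb10, at -217 to -212. Cycs had pileups of 14, 14 and 28 in experiments 1, 2 and 3, and Ndufb10 had 12 and 15 in experiments 2 and 3.

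Short motifs were counted on both strands in windows of 250 bases before to 50 after the start, 84 windows for 79 of the 98 genes and 21263 windows for 17492 protein-coding genes. The T-box core GGTGTG was in 11 of the 84 (13.1%), beside 18.4% of all windows. The 7-letter T-box element GGTGTGA, which contains the core, was in 0 of 84, beside 3.68%. Among the respiratory chain genes the core was in 9.62% of the 52 windows of genes with an assigned reproducible promoter region and in 18.8% of the other 32. Over all genes these shares were 18.1% and 18.7%. Over all genes, the T-box letters were thus about as frequent in windows of genes with an assigned Eomes promoter region as in the others. The family's shares rest on 5 and 6 windows. The split is by gene, and a window need not overlap the region of its gene, as at Ndufaf3.

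Among the other motifs, 3 were more frequent than over all genes. The NRF1 core GCGCATG was in 19% of the family's windows, beside 4.8% of all. The ETS core CCGGAAG was in 22.6%, beside 11.6%, and the YY1 core AAGATGG in 14.3%, beside 6.24%. The remaining pair lay closer to the background when all windows were taken. The CCAAT box, bound by NF-Y, was in 42.9%, beside 38.2%, and the GC box GGGCGG, bound by SP factors, in 44%, beside 46.2%. For genes with an assigned Eomes promoter region the GC box was in 40.4% of the family's windows, beside 65.3% over all genes. In the other windows it was in 50%, beside 32.6%. The CCAAT box was in 32.7%, beside 36.5%, with such a region, and in 59.4%, beside 39.4%, in the others. Within the family the ETS core was in 15.4% of the windows of genes with an assigned Eomes promoter region and in 34.4% of the others, while over all genes it was in 19% and 6.28%. For the NRF1 core the shares were 15.4% and 25% within the family, and 6.6% and 3.52% over all genes. These shares rest on 8 windows and 11 for the ETS core and on 8 and 8 for the NRF1 core. The split follows the gene assigned by the lists: Atp5h, Ndufs3 and Uqcrh, 3 of the 11 genes, have a reproducible region near the start that was given to a neighbour, so the 34.4% is not a share of promoters free of Eomes regions. Over all windows, base composition was higher too, with a median GC content of 58.5%, beside 56.3%, and a median of 20 CpGs per window, beside 13. For genes with a reproducible promoter region it was not: the medians were 58.3% and 20 in the family, beside 61.7% and 22 over all genes. A match is a run of letters and was not tested as a binding site.

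**Figure D3:**
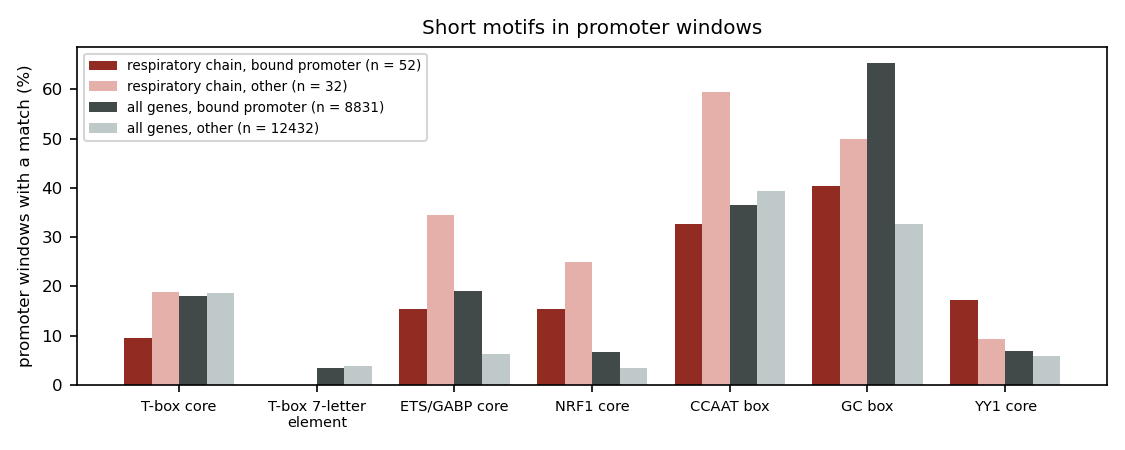
Share of promoter windows (250 bases before to 50 after the start) that hold each short motif on either strand, for respiratory chain genes and for all protein-coding genes, each split by whether a reproducible Eomes promoter region was assigned to the gene (bound promoter) or not (other). The NRF1 bars of both respiratory chain classes (15.4% and 25%) exceed those of all genes (6.6% and 3.52%).

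The Eomes summits at respiratory chain promoters clustered at the start itself. The 81 genes had 66 reproducible regions, and 84.8% were of the promoter class, beside 66.1% of the regions of all genes. In 48 of their 56 promoter regions (85.7%) the highest-scored peak assigned to the gene overlapped the start, beside 58.3% over all genes. Summits within 100 bp of the start made up 54.5%, 66.0% and 73.6% in experiments 1, 2 and 3, beside 37.6%, 39.2% and 38.9% over all genes. The median summit lay at -23.5, -6 and -12 bp, and the quartiles of the summits of experiment 3 were -68 and 46 bp, beside -128 and 212 bp over all genes. In promoter regions found in all 3 lists, the 3 summits spanned a median of 60 bp at respiratory chain genes, beside 84 bp over all genes. The width of the regions was similar, with a median of 482 bp beside 467 bp.

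**Figure D4:**
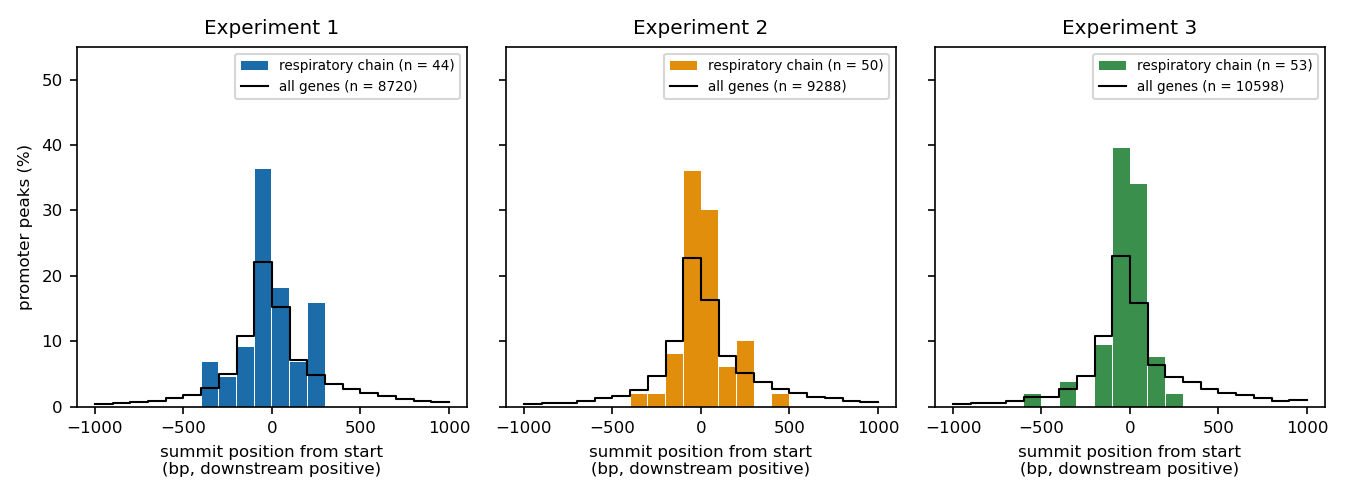
Position of promoter peak summits relative to the start (x axis, bp, bins of 100 bp, window of 1000 bp on either side) as a share of promoter peaks (y axis), by experiment, with bars for respiratory chain genes and the line for all genes. The 2 bars next to the start rise above the line in each experiment, and none lies beyond 600 bp from the start within this window.

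In the remaining 8 promoter regions the highest-scored peak assigned to the gene did not overlap the start. These regions belonged to Atp5f1, Ndufaf6, Ndufa12, Atp5g1, Ndufaf3, Ndufb5 (its weaker region) and, with a pair, Ndufa4l2. The merged regions of Atp5f1 and Ndufa12, which hold the peaks of all lists, did span the RefSeq start. At Atp5g1, 1 of 3 genes for the c subunit of the ATP synthase rotor ring, the summits lay at -355, -339 and -358 bp from the start, with pileups of 13, 20 and 20. At Ndufa4l2, an isoform induced by low oxygen in other cells, the 2 promoter-class regions lay at -1790 and -2843 bp from the start, outside the nearest 1 kb. At Ndufaf3 the highest-scored peak began 341 bp downstream, and that of the weaker Ndufb5 region lay at -452 bp.

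Apart from Cox7a2, the strength of the regions was ordinary. The leading region of a gene is the one in most lists, then of highest mean percentile. The 55 leading regions had a median fold of 4.90, beside 5.23 over the 9806 covered protein-coding genes, and a median percentile of 66.6, beside 71.8. Their median pileups were 15, 14.5 and 21 in experiments 1, 2 and 3, beside 16, 14 and 22. A mean percentile over 90 was reached by 7 of the 55 (12.7%), beside 19.5% of all covered genes. Taking only leading regions at promoters gave median percentiles of 66.5 for respiratory chain genes and 70.3 for all genes.

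At the low end, 5 genes with a region in all 3 lists had the lowest ranks. Ndufaf6, an assembly factor, had pileups of 9, 11 and 14, and Ndufv2, the iron-sulfur core subunit beside Ndufv1, had 12, 13 and 15. Atp5g3, another c subunit gene, had 14, 7 and 21 and a fold of 4.15 ± 2.12. Cox7a2l, a paralog of Cox7a2, had 14, 10 and 11 at its promoter and a fold of 4.06 ± 0.53. The fifth, Ndufb7, had its leading region outside the promoter and is described with the distal regions. Several of these pileups lay near the lowest of their list (8, 7 and 9), while others did not: Atp5g3 in experiment 3 ranked at the 85.3rd percentile and Ndufv2 in experiment 2 at the 76.3rd. Cox7a2l thus had a fold below that of its paralog Cox7a2 by more than their SDs.

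The other core subunits lay between these ends. In complex I, Ndufs8, another iron-sulfur subunit, had pileups of 12, 15 and 23 (fold 4.39 ± 0.97). In complex II, Sdha, the flavoprotein that oxidises succinate, had 16, 16 and 20 (4.64 ± 1.13). Sdhb, its iron-sulfur partner, had 16 and 30 in experiments 2 and 3 (5.83 ± 2.50, n = 2) and no overlapping peak in experiment 1. In complex III, Uqcrfs1, the Rieske iron-sulfur protein, had 19, 18 and 23 (5.58 ± 1.66), and Uqcrc1, a core protein, had 13, 14 and 22 (4.67 ± 1.23). Cycs, the mobile electron carrier between complexes III and IV, had 14, 14 and 28 (4.67 ± 1.58), in a region shared with 5430402O13Rik. The pileup ranges of these 6 genes overlapped, so their order is not resolved.

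In the ATP synthase, the core subunits other than Atp5c1 had a lower mean fold than Atp5c1 or no assigned peak. Atp5a1, the alpha subunit, had pileups of 18, 8 and 17 (5.15 ± 1.40), with experiment 2 near the lowest pileup of its list. Atp5b, the catalytic beta subunit, had 9 and 16 in experiments 2 and 3 (4.04 ± 0.37, n = 2). Atp5d, the delta subunit of the central stalk, had 18, 17 and 34 (4.60 ± 0.80). Its pileups in experiments 2 and 3 were above those of Atp5c1 (16 and 32), while its fold was lower. Atp5e, the epsilon subunit, had no assigned peak. Outside the core list, Atp5f1, the b subunit of the peripheral stalk, had 14, 10 and 19 (4.72 ± 1.16), in a region shared with Wdr77.

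Regions in 2 lists were missing from the remaining list unevenly. Of the 19 genes whose leading region was in 2 lists, the missing list was that of experiment 1 for 9, of experiment 2 for 7 and of experiment 3 for 3. The leading regions of the 55 genes thus had a peak in experiments 1, 2 and 3 in 46, 48 and 52 cases. Over the 9806 covered protein-coding genes it was 8217, 8505 and 9418, in the same order, so the unevenness is not particular to this family. For example, Ndufa5, an accessory subunit of complex I, had pileups of 20 and 22 in experiments 2 and 3, above many regions found in all 3 lists, and no overlapping peak in experiment 1. Cox7c, a small complex IV subunit, had 8 and 23 in experiments 1 and 3.

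Peaks that did not recur made up the rest. Of the 81 genes, 26 had peaks but no reproducible region, and 17 of these had peaks in 1 experiment alone. Experiment 1 was the source for 2 of them, experiment 2 for 3 and experiment 3 for 12. The 12 were Cox4i2, Atp5j2, Ndufa1 and Ndufaf2, together with Uqcrc2, Uqcrq and Uqcr11 of complex III, Ndufa6 and Ndufa8 of complex I, Cox8a of complex IV and Atp5k and Atp5l of the ATP synthase; all but Cox4i2 had a promoter peak. The highest of these promoter peaks, with a pileup of 22, was at Ndufa6. Cyc1, which encodes cytochrome c1, had 1 promoter peak with a pileup of 11 in experiment 2. Atp5g2 and Cox7a1 also had peaks in experiment 2 alone. Ndufs1, the largest complex I subunit, had 1 peak in experiment 1, 21810 bp downstream of its start, and Cox8b likewise had 1 distal peak in that experiment. Ndufs4, a subunit often mutated in complex I deficiency, had 12 peaks over the 3 experiments, of which 1 was at the promoter and none overlapped a peak of another list. Cox6a1, Cox6b2, Cox6c, Ndufa4, Ndufaf4, Ndufaf8, Ndufb9, Ndufs4 and Ndufv3 had peaks in 2 or more experiments that did not overlap.

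Reproducible regions outside promoters were assigned to 8 genes, of which 5 had their leading region there. Cox4i1, the widely expressed isoform of a regulatory complex IV subunit, had 4 reproducible regions, the most of the 81. Its leading region (chr8:120683632-120683984) lay 10483 bp downstream of the start, past the gene's end, with pileups of 25, 17 and 29 and a fold of 6.72 ± 2.25. Another pair of regions lay at 7992 and 9369 bp, the first in experiments 1 and 2, the second in experiments 2 and 3. The lists class all 3 as intronic, in intron 1 of another annotated transcript. Among RefSeq protein-coding genes all 3 lay between Cox4i1 and Irf8, which encodes an interferon regulatory factor of immune cells. They were 6910 to 9423 bp from the end of Cox4i1 and 52374 to 54873 bp from Irf8. The promoter region of Cox4i1 (19, 20 and 21; fold 6.08 ± 2.03) also had peaks assigned to Emc8. Assignment by distance does not show which gene a region acts on.

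The other distal regions lay in 2 lists each, except at Ndufb7. Sdhd, the second membrane anchor of complex II, had its leading region 9949 bp downstream of the start, between Sdhd (2440 bp away) and Il18 (11868 bp away), the gene of a cytokine that acts on NK cells. Its pileups there were 16 and 24 in experiments 2 and 3, and at its promoter they were 11 and 25. Ndufb7 had a region in 3 lists in an exon of Tecr, 6446 bp downstream, with 12, 9 and 13. Ndufa9, an accessory subunit of complex I, had one 37474 bp downstream, with 12 and 18 in experiments 1 and 3. Cox7b2 had 11 and 14 in the same experiments. Cox7a2l, Ndufa10 and Ndufaf6 had a distal region beside a promoter region, at -12755, 87731 and -8551 bp.

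Assignment of each peak to 1 gene left out several respiratory chain promoters that were covered. Of the 15 genes with no assigned peak, 5 had a reproducible region within 1000 bp of their start that the lists gave to the neighbour. Ndufs3, a core subunit of complex I, shared a region in 3 lists with Kbtbd4 (pileups 15, 12 and 20; fold 5.12 ± 0.23). Ndufaf7 shared one with Cebpz (22, 13 and 20; 4.96 ± 0.94), and Ndufb1 one with Cpsf2 (17, 14 and 25; 6.15 ± 0.99). Regions near Uqcrh and Atp5h, in 2 lists each, were given to Lrrc41 and Kctd2. No peak lay within 1000 bp of the starts of Atp5e, Cox7b, Ndufb4, Ndufb4b and Uqcr10. At Ndufb11 the 1 peak near the start was in 1 list and assigned to Rbm10. Cox6a2, Cox8c, Ndufb4c and Uqcrb had no peak over the gene, and no start for them was in the promoter table.

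Counted by position alone, 54 of the 79 genes with a start in the promoter table (68.4%) had a reproducible region within 1000 bp, beside 39.6% of 17492 protein-coding genes. Many of these starts lie near that of a neighbour: 23 of the 79 had a divergent start within 1000 bp upstream, among them Cycs, Ndufa13, Ndufb3, Sdhd and Atp5c1. Of these 23, 12 had an assigned reproducible region and 17 had one near the start. Of the other 56, the counts were 36 and 37. Genes with a region near the start thus outnumbered those with an assigned one by 5 among the 23 and by 1 among the other 56. The 23 may be an undercount: the Ndufs6 region also covers an end of Mrpl36, and Ndufs6 stands among the other 56.

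Of the 98 genes, 3 lie on the X chromosome (Ndufa1, Ndufb11 and Cox7b), and none of them had a reproducible region. On that chromosome 11.0% of 966 protein-coding genes had one, against 44.8% over the genome.

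Other genes of the pathway were covered as well. Of 75 genes outside the symbol rule, 56 (74.7%, beside 44.8% of all genes) had a reproducible region. For regions in all 3 lists it was 30 (40%, interval 29.7 to 51.3), beside 29.8% of all genes, a share just inside the lower end of the interval. Among 11 nuclear regulators of mitochondrial genes, 10 had one, with Polrmt the exception. The highest ranks were at Tfb2m (fold 8.01 ± 3.20), Yy1 (8.74 ± 2.12), Gabpb1 (8.54 ± 1.01) and Gabpa (6.67 ± 0.20). Nrf1 (3.72 ± 0.33), Tfb1m (4.26 ± 1.10) and Esrra (3.26 ± 0.20) lay low, and the region of Ppargc1a was 59112 bp from its start. Of 16 genes of the tricarboxylic acid cycle and the pyruvate dehydrogenase entry to it, 14 had one, led by Sucla2 (10.72 ± 2.44), a succinyl-CoA ligase subunit. The assembly factors of complex IV had one in 14 of 22 cases and those of complexes II, III and V in 10 of 14, led by Uqcc3 (8.96 ± 2.39). The complex I assembly factors with other names and the carriers each had 4 of 6.

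Set beside other large housekeeping complexes, the respiratory chain was not the most covered. A reproducible region was found at 55 of 78 mitochondrial ribosomal protein genes (70.5%), at 64 of 91 cytosolic ribosomal protein genes (70.3%) and at 39 of 51 proteasome genes (76.5%), beside 57.1% of the respiratory chain genes. For regions in all 3 lists the shares were 37.8% for the respiratory chain, and 53.8%, 48.4% and 47.1% for the other sets. These differences were not tested. Chromatin accessibility and promoter activity were not measured here, and their part in the coverage of these promoters was not tested.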

How the data were processed

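Eomes and input libraries of 3 experiments were processed by the authors. Reads were mapped to mm10; Novoalign and ChIPseeker are named, per the submitters' processing notes. The sources used here name no peak caller. The deposited lists, 1 per experiment with immunoprecipitate against its own input per the labels, hold the pileup (a signal), the fold enrichment (a ratio to background) and the −log10 p-value and −log10 q-value of each peak, with the authors' gene, class and distance.

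Sub-peaks were reduced to 1 per interval, that of highest −log10 q. Intervals sharing at least 1 bp were merged, and a region with peaks from at least 2 lists was called reproducible. A gene was covered when such a region held a peak assigned to it. Merging was tested on simulated intervals. Python 3.11.15, pandas 2.3.3 and numpy 2.4.6 were used, with RefSeq tables of GRCm38.p6. All 13 mitochondrial genes were left out. No test was run: members are not replicates, and shares stand beside those of all genes.

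Named genes are the 12 highest and 5 lowest by mean percentile among those in 3 lists, the 3 with most regions, those with a leading region outside promoters, those without a reproducible region, the core subunits and the tissue-restricted isoforms; others are illustrations chosen after their values were seen. The members and lists were chosen with earlier results of these data known. Alternatives were stricter q-values, overlap, agreement, promoter and motif definitions, and leaving out each experiment. The values of 1 complex I gene are not reported here, though it is kept in all counts.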

Additional observations from a re-analysis of the deposited data

How the results depend on the processing

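The 55 genes with a reproducible region became 29 at a −log10 q of at least 5, and 36 when a region had to be in 3 of 3 experiments. The 54 with a promoter region became 27 and 35 under the same settings. At a −log10 q of at least 5 the median fold of leading regions was 6.27, beside 4.90, and 28 of the other pathway genes were covered, beside 56. With promoters limited to 1 kb, 81.8% of the reproducible regions were of the promoter class, beside 84.8%. The 7-letter T-box element gave 0% of windows, beside 13.1% for the core. Leaving out 1 experiment gave 34 to 47 genes with a reproducible region, 32 to 47 with a promoter region, a promoter share of 84.8% to 92.2% and 34 to 44 other pathway genes; the lowest counts were those without experiment 3. A −log10 q of at least 2 left 52 genes, an overlap of 50% left 52, and counting a region only for the gene of its highest-scored peak, an alternative chosen after seeing the data, left 53. The share of all protein-coding genes was not computed at the stricter q-values, the 50% overlap or this last alternative. These counts therefore do not show whether the family's excess over all genes held there. Of the 12 highest-ranked genes, Ndufb3 had no assigned reproducible region without experiment 3. No paired analysis was possible because each list already sets the immunoprecipitate against its own input and the results come from no test. Read totals are not in the lists, so the part of depth in the larger list of experiment 3 was not tested.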
